A study of Mus musculus with 2 samples.

Results

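The transcripts of 10 clotting proteins were followed through the cell lineages of regenerating mouse liver. F8 and Vwf are the pair that endothelium is known to make, and F2, F5, F7, F9, F10, F11, Fga and Fgb are the 8 that hepatocytes are known to make. They were chosen by name, and all 10 had a row among the 32286 genes of the count table. The data were single-nucleus RNA counts from a Cox10-/- library of 5167 nuclei and a wild-type library of 5448 nuclei, 1 library of each. Cox10 encodes an enzyme of heme A synthesis, which cytochrome c oxidase needs. All mice carried a floxed Cox10 allele and were injected once, behind the eye, with an adeno-associated virus of serotype AAV8 that carried either Cre recombinase or GFP. The labels do not say which virus each library's animal received, nor how many animals stood behind it. AAV8 transduces mainly hepatocytes, and nothing in the labels describes recombination in other cells. A 70% partial hepatectomy followed 4 weeks after injection; the protocol dates dissection to 4 days after surgery, whereas the time field of both libraries gives 4 weeks. The mice were on standard chow, and the labels used here give no age, sex or strain. Livers were perfused and digested before nuclei were isolated, and 7000 nuclei per sample were loaded on a 10x Genomics chip that tags the 3′ end of transcripts.

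Clotting ends when thrombin, cut from prothrombin (F2), turns fibrinogen into fibrin, and fibrinogen is built from chains that include those encoded by Fga and Fgb. Factor VII (F7) starts the cascade on tissue factor, factor XI (F11) activates factor IX (F9), and factor IX with its cofactor factor VIII (F8) activates factor X (F10). Factor X with its cofactor factor V (F5) then cuts prothrombin. Von Willebrand factor (Vwf) carries factor VIII in plasma and tethers platelets to damaged vessel walls. Hepatocytes secrete most of these proteins, while liver sinusoidal endothelium is known as the main source of factor VIII, and larger vessels, more than sinusoids, make von Willebrand factor. In droplet data, RNA of such abundant secreted proteins that leaks from broken hepatocytes can be caught with the nucleus of any other cell, so a hepatocyte transcript in another nucleus was read as free RNA unless it stood above the level that all other lineages shared.

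On the mm10 build F8 and F9 lie on chromosome X, at chrX:75172715-75382615 and chrX:59999464-60030759. F7 and F10 are neighbours at chr8:13026034-13035809 and chr8:13037308-13056676, with F11 at chr8:45241174-45262031. Fga and Fgb are neighbours at chr3:83026076-83033627 and chr3:83040141-83049863. Vwf lies at chr6:125546774-125686679, F2 at chr2:91625320-91636414 and F5 at chr1:164151838-164220277.

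Of the 10 genes, 9 had a promoter window in RefSeq (GRCm38.p6, the mm10 build), and 4 of these windows are shown because the transcripts fell into 2 patterns. As a share of all counts, Fgb and F2 of the Cox10-/- library differed little between hepatocyte-like and other named nuclei. F9 and F11 were higher in hepatocyte-like nuclei. Each line gives the 250 bases before the RefSeq start, on the strand of the gene, with capitals at matches to GTTAAT (reverse ATTAAC), the core of the site bound by HNF1 factors, or to CAGGAA (reverse TTCCTG), an ETS-type core. The Fgb window lies at chr3:83049864-83050113 on the minus strand, F2 at chr2:91636458-91636707 on the minus strand, F9 at chrX:59999214-59999463 on the plus strand, and F11 at chr8:45262032-45262281 on the minus strand.
Fgb: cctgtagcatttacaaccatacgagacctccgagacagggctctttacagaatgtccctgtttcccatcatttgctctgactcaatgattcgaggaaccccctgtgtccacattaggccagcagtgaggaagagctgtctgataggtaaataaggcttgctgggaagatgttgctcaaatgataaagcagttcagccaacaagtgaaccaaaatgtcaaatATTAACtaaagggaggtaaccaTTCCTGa
F2: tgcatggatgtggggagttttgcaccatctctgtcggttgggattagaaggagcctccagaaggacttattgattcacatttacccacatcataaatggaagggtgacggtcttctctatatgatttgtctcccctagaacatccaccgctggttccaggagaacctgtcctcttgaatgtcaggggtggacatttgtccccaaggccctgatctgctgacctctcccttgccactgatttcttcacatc
F9: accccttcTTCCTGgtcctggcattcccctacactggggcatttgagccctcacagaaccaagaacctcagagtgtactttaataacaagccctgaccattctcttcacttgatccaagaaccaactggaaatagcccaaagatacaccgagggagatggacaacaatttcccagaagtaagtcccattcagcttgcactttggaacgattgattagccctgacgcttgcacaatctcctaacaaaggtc
F11: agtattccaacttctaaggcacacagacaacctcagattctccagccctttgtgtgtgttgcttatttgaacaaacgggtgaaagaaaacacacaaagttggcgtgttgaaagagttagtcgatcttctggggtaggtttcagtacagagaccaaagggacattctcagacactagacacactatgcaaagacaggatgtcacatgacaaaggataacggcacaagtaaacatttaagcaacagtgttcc
The HNF1 core was found in the Fgb window, 29 to 24 bases before the start, and in the Fga window, 43 to 38 bases before the RefSeq start. The part of the Fga window with this match lies inside the annotated Fga gene, which begins at chr3:83026076. The F8 window, at chrX:75380042-75380291, lies wholly inside the annotated F8 gene. The HNF1 core was present in 6.43% of all 32851 windows of this length, on either strand. The ETS-type core lay in the windows of Fgb, Fga and F9, and 25.7% of all windows held it. CAAAGTCCA (reverse TGGACTTTG), an HNF4-type site, was in 0.384% of all windows and in none of the 9 windows of these genes. These matches describe letters only, not bound sites.

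The Cox10-/- library held 14476400 UMIs (unique transcript tags) with a median of 2291 per nucleus, and the wild-type library held 17703804 with a median of 2853.5. The median share of mitochondrially encoded UMIs was 8.92% in the Cox10-/- library and 12.6% in the wild-type library. The 2 libraries shared 7 cell barcodes. Clusters named from marker genes gave, in the Cox10-/- and the wild-type library, 798 and 5195 hepatocyte-like nuclei, 1412 and 47 endothelial-like, 748 and 33 stellate-like, 597 and 39 myeloid-like, 117 and 18 lymphoid-like and 194 and 10 cholangiocyte-like nuclei, while 1287 and 106 nuclei stayed unnamed. The hepatocyte-like nuclei of the Cox10-/- library lay almost all in cluster 11 (793 nuclei, led by Meg3, 4930404H11Rik and Rian), whereas those of the wild-type library lay in clusters 0 to 5. Cox10 itself, counted at the 3′ end, stood at 46.2 CPM (95% interval 39.8 to 53.3) among the hepatocyte-like nuclei labelled Cox10-/-, against 34.7 CPM (31.9 to 37.6) among those labelled wild-type, so it was not lower there. The position of the deleted part relative to the counted 3′ end is not given, and this does not check the label. Both livers carried Y-linked transcripts, with Ddx3y at 120.6 CPM in the Cox10-/- and 118.8 CPM in the wild-type library, and Xist had 1 and 6 UMIs, which bears on F8 and F9 as X-linked genes. CPM is the UMI count of a gene scaled to 1e+06 UMIs summed over the nuclei of a lineage. Since each genotype is 1 library, no test between genotypes was possible, and all intervals are 95% counting intervals that cover neither animal nor preparation.

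F8 was an endothelial transcript in both libraries. Endothelial-like nuclei held 3823 F8 UMIs, or 1214 CPM (1175 to 1253), in the Cox10-/- library, and 98 F8 UMIs, or 1028 CPM (834 to 1252), in the wild-type library. In the other named lineages of the Cox10-/- library it was at 25.6 CPM in cholangiocyte-like, 23.4 in lymphoid-like, 16.8 in hepatocyte-like, 16.1 in stellate-like and 6.92 in myeloid-like nuclei. Below the endothelial-like level, the interval of each lineage in that order overlapped that of the next. Wild-type F8 was at 10.1 CPM in hepatocyte-like nuclei (171 UMIs) and at 31.3 CPM in myeloid-like nuclei (4 UMIs), with no UMI in stellate-like, lymphoid-like or cholangiocyte-like nuclei. A count of 0 there allows up to 30.4, 44.6 and 88.7 CPM. No other named lineage of either library came near the endothelial-like value.

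F8 in endothelial-like nuclei was 80.6-fold (63.7 to 103) that in the other non-hepatocyte lineages pooled in the Cox10-/- library, and 84.2-fold (31.8 to 315) in the wild-type library. A gene was called when it differed at least 2-fold with its whole interval beyond 1.5-fold and had at least 20 UMIs. In the Cox10-/- library 2 of the 10 clotting genes, F8 and Vwf, were called higher in endothelial-like nuclei, where 6.87% of 12856 genes were, and none was called lower (14.6%). Among wild-type nuclei F8 was called higher (6.29% of 3893 genes) and F5 lower (8.5%), while Vwf had too few UMIs to be tested. Of the 10, none was called higher in stellate-like, myeloid-like or lymphoid-like nuclei of the Cox10-/- library (7.06%, 9.2% and 5.9% of genes were); F8 was called lower in all 3 (14.4%, 14.2% and 7.09%) and Vwf in the stellate-like and myeloid-like nuclei. F8 was also the 1 called lower in wild-type stellate-like (5.78%) and myeloid-like nuclei (6.7%), and none was called higher in the wild-type myeloid-like nuclei (5.19%). The pooled lineages in these comparisons held the endothelial-like nuclei, so the lower calls of F8 and Vwf restate their endothelial excess. Between genotypes, F8 in endothelial-like nuclei differed by a ratio of 1.18 (0.966 to 1.46), an interval that includes 1. This ratio depends on which wild-type nuclei were counted. The wild-type level was 239, 443, 454 and 457 CPM under alternatives given below, and it stayed inside its counting interval under the others. None of the 10 genes was called between genotypes in endothelial-like nuclei, where 0.673% of 9952 genes were called higher and 0.985% lower.

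The share of nuclei with an F8 UMI gave the same contrast at equal depth. After every nucleus was thinned to 1000 UMIs, 64.5% (62.0 to 67.0) of 1407 endothelial-like nuclei of the Cox10-/- library had F8, against 1.25% (0.603 to 2.30) of 797 hepatocyte-like nuclei. The wild-type shares were 55.3% (40.1 to 69.8) of 47 endothelial-like nuclei and 1.10% (0.833 to 1.42) of 5191 hepatocyte-like nuclei. The hepatocyte-like share was taken as the background on the assumption that those nuclei make no F8, which was not tested. Without thinning, the endothelial-like shares were 84.4% in the Cox10-/- and 78.7% in the wild-type library at median depths of 2134 and 1744 UMIs, and the hepatocyte-like shares were 7.27% and 3.04% at 4413.5 and 2856 UMIs.

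The wild-type level rests on 47 nuclei and on where the endothelial-like boundary lies. All 47 had between 11.3% and 19.9% mitochondrially encoded UMIs. With nuclei of at most 10% kept, the endothelial-like group of the wild-type library became 25 other nuclei, all of cluster 9, and F8 there was 239 CPM. Cluster 9 (11 Cox10-/- and 90 wild-type nuclei, led by Kitl, Emcn and Arhgef15) was left unnamed: in its wild-type nuclei F8 was 286 CPM (230 to 351), the endothelial markers summed to 4548 CPM against 13380 in wild-type endothelial-like nuclei, and the hepatocyte markers to 15910 CPM. Counting cluster 9 as endothelial-like, a choice made after the data were seen, gave 457 CPM in the wild-type library. The part of these markers in the wild-type level was not tested.

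**Figure D1:**
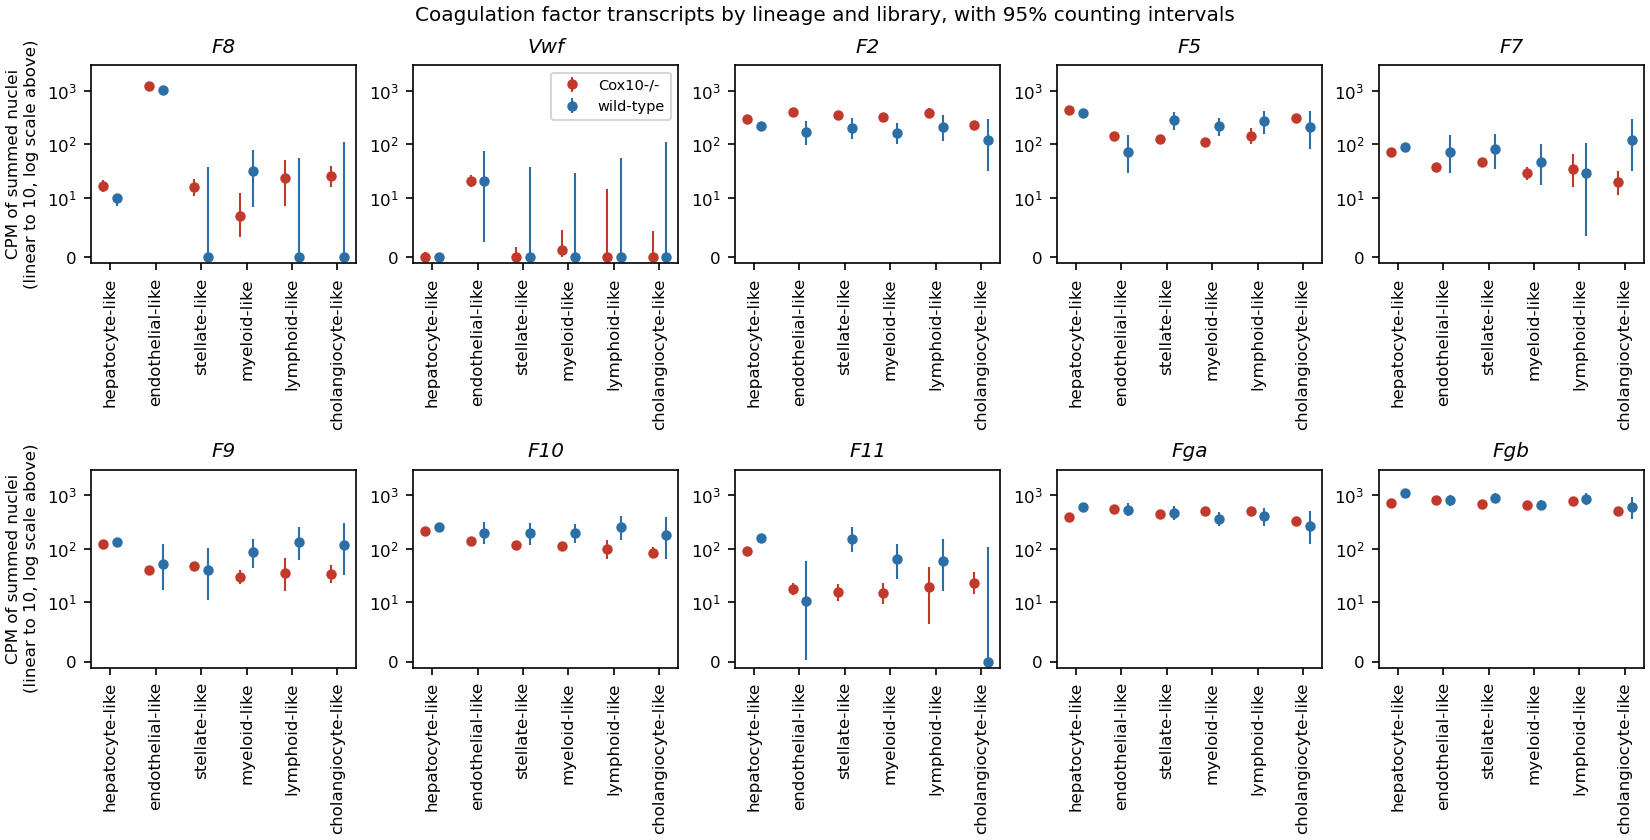
Levels of the 10 clotting transcripts in CPM of summed nuclei (linear to 10, log scale above) by lineage, with Cox10-/- left of wild-type in each pair and 95% counting intervals as bars. F8 stands at 1214 and 1028 CPM in endothelial-like nuclei and at 31.3 CPM or less in all other named lineages, while F2, Fga and Fgb lie at similar heights across all lineages of the Cox10-/- library.

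Because the libraries held such different numbers of endothelial-like nuclei, F8 summed over a whole library differed far more than F8 within the lineage. Over all nuclei it was 304.5 CPM in the Cox10-/- library and 20.8 CPM in the wild-type library, 14.7-fold apart (13.2 to 16.3), where 27.6% of 15133 genes were called higher. Over whole libraries Vwf was called higher too (5.41 and 0.169 CPM), and F11 was called lower (39.9 and 153.6 CPM), where 6.85% of genes were. Endothelial-like nuclei were 27.4% of the Cox10-/- and 0.863% of the wild-type nuclei. Of the 4392 F8 UMIs of the Cox10-/- library 87.0% lay in endothelial-like nuclei and 1.55% in hepatocyte-like nuclei. Of the 368 F8 UMIs of the wild-type library 26.6% lay in endothelial-like nuclei, 46.5% in the 5195 hepatocyte-like nuclei and 25.8% in unnamed nuclei. Whether the share of endothelial nuclei reflects the livers or the nuclei that survived preparation cannot be told apart here.

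Some unnamed clusters of the Cox10-/- library also held F8. Cluster 7 (28 nuclei, led by Aoah, Pla2g7 and Cd163) had 797 CPM (641 to 978), cluster 14 (154 nuclei, led by the mitotic genes Kif23, Cenpe and Neil3) had 387 CPM (343 to 436), and cluster 9 had 350 CPM (233 to 506). The endothelial markers summed to 8125 CPM in cluster 7 and 5408 CPM in cluster 14, against 14690 CPM in endothelial-like nuclei and between 361 and 909 CPM in the stellate-like, myeloid-like, lymphoid-like and cholangiocyte-like nuclei. Markers of other lineages were high there too. Over both libraries, the median log2 excess in cluster 7 was 3.15 for myeloid and 2.24 for endothelial markers. In cluster 14 it was 2.92 for stellate, 2.19 for myeloid and 1.49 for endothelial markers. F8 outside the named lineage was thus found in clusters that held endothelial markers beside those of other lineages. Whether these clusters mix nuclei or hold doublets was not tested.

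Vwf was rare, and 75.6% (64.6 to 84.7) of its Cox10-/- UMIs lay in 1 small endothelial cluster. The Cox10-/- library had 78 Vwf UMIs in all and the wild-type library 3. Its level in endothelial-like nuclei was 20.95 CPM (16.2 to 26.7) on 66 UMIs for Cox10-/- and 20.97 CPM (2.54 to 75.8) on 2 UMIs for wild-type. No Vwf UMI was found in hepatocyte-like nuclei of either library, which allows up to 0.741 CPM in the Cox10-/- and 0.177 CPM in the wild-type library. Endothelial-like nuclei exceeded the other non-hepatocyte lineages 49.4-fold (13.1 to 416) in the Cox10-/- library. Unlike the hepatocyte transcripts below, Vwf showed no shared level across lineages.

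The endothelial-like nuclei comprised cluster 10 (1319 Cox10-/- and 41 wild-type nuclei, led by Shisa9, Stab2 and Galnt18) and cluster 18 (93 and 6 nuclei, led by Vwf, Mecom and Adgrg6). The clotting genes were kept out of the clustering, so Vwf did not shape cluster 18, but the genes that did may follow it. In the Cox10-/- library Vwf was at 258.8 CPM (197 to 334; 59 UMIs) in cluster 18 and at 2.40 CPM (0.963 to 4.94; 7 UMIs) in cluster 10, a ratio of 108 (49.3 to 280). F8 ran the other way, at 618 CPM (521 to 729; 141 UMIs) in cluster 18 and 1260 CPM (1220 to 1301; 3682 UMIs) in cluster 10, a ratio of 0.491 (0.412 to 0.581). Vwf was thus called higher and F8 lower, against 1.25% and 0.78% of 9876 genes. Of the 3 wild-type Vwf UMIs, 2 lay in the 6 nuclei of cluster 18 and 1 in unnamed cluster 9. Wild-type F8 was at 799 CPM (426 to 1367) in cluster 18 and 1075 CPM (858 to 1329) in cluster 10, with intervals that overlapped.

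The markers of the 2 clusters differed in the same nuclei. Stab2, a scavenger receptor of sinusoidal endothelium, was at 654 CPM in cluster 18 and 3492 CPM in cluster 10 of the Cox10-/- library. The sinusoidal list summed to 2439 and 6393 CPM, the portal and arterial list (Efnb2, Dll4, Sema3g, Adgrg6, Cd34) to 952 and 171 CPM, and the central-vein list (Rspo3, Wnt2, Wnt9b, Kit) to 21.9 and 276 CPM, cluster 18 first. Platelets and megakaryocytes also make Vwf: 6 of 8 megakaryocyte markers were at 0 in cluster 18, and 13 of its 14 UMIs on that list were Itgb3, which endothelium also expresses. Of the 217 UMIs of the portal and arterial list in cluster 18, 144 were Adgrg6, a leading gene of that cluster. Of the 5 markers of that list, 2 were at 0 there. Cluster 18 was thus high in Vwf and in the portal and arterial list, mostly through Adgrg6, and low in Stab2.

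F8 and Vwf were not exclusive within a nucleus. In cluster 18 of the Cox10-/- library 64 of 93 nuclei had an F8 UMI, 23 had a Vwf UMI and 14 had both. F8 was seen in 60.9% (38.5 to 80.3) of the nuclei with Vwf and in 71.4% (59.4 to 81.6) of those without, intervals that overlap widely. In cluster 10 F8 was seen in 1128 of 1319 nuclei and Vwf in 6.

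**Figure D2:**
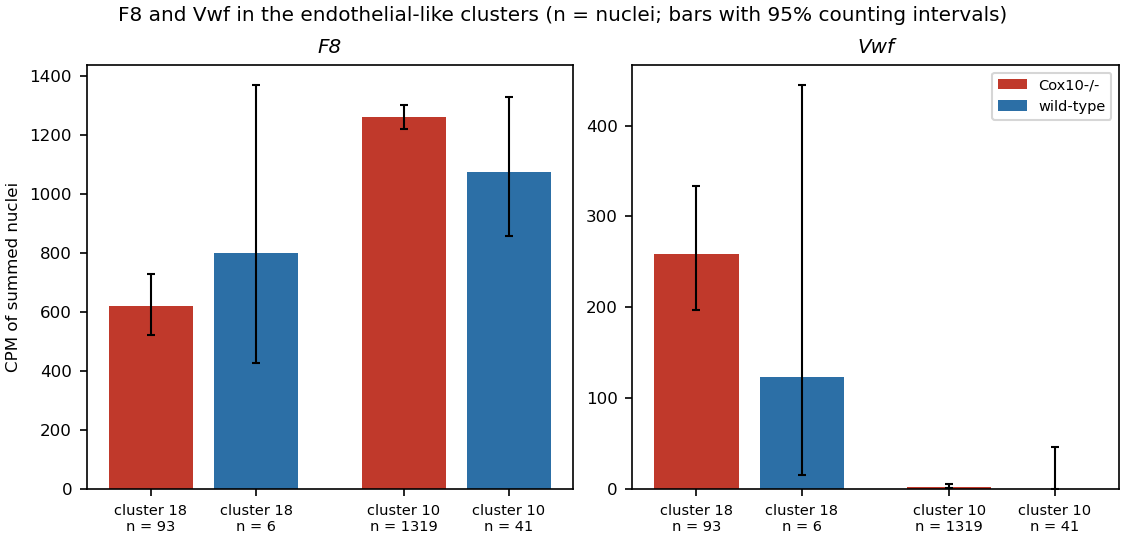
F8 and Vwf in CPM of summed nuclei in the 2 endothelial-like clusters, with Cox10-/- left of wild-type in each pair, bars from 0 and 95% counting intervals. In the Cox10-/- library Vwf is at 258.8 CPM in cluster 18 and 2.40 CPM in cluster 10, while F8 is at 618 CPM in cluster 18 and 1260 CPM in cluster 10.

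A split by position markers gave smaller contrasts for F8. Among endothelial-like nuclei of the Cox10-/- library, the 413 with at least 1 UMI of the central-vein list had 1356 CPM of F8 and the 999 with none had 1148 CPM, a ratio of 1.18 (1.10 to 1.26). Stab2 was higher in the same nuclei, at a ratio of 1.40 (1.35 to 1.46), and 252 nuclei lay at the cut with a single marker UMI. The same split of wild-type nuclei gave 998 CPM in 15 nuclei and 1046 CPM in 32, a ratio of 0.954 (0.615 to 1.46). The 422 nuclei with portal and arterial markers in the Cox10-/- library had 1106 CPM of F8 and the 990 without had 1265 CPM, a ratio of 0.875 (0.815 to 0.938). For Vwf these were 56.99 CPM with and 3.75 CPM without the portal and arterial markers, a ratio of 15.2 (7.22 to 36.8). That list holds Adgrg6, a leading gene of cluster 18, so the 2 contrasts of Vwf are not independent.

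The genes most like F8 and Vwf were ranked by Pearson's r of log2(CPM + 1) over 17 sums of cluster and library with at least 50 nuclei, among 15046 genes. For F8 these were Zfp521 and 6030498E09Rik (both 0.98), Mroh7 (0.98), A030001D20Rik (0.97) and Il13ra2 (0.97). For Vwf they were Gask1b (0.94), Txlnb (0.88), Igfbp5 (0.87), Rnf215 (0.85) and Adgrg6 (0.85). F8 and Vwf themselves correlated at 0.65. The sums share libraries, depth and free RNA, so these values describe the clusters only.

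The hepatocyte-made transcripts were found in every named lineage of the Cox10-/- library, and they differed in how far hepatocyte-like nuclei stood above the others. In the Cox10-/- library F11, the activator of factor IX, was at 88.4 CPM (79.5 to 98.1) in hepatocyte-like nuclei and 17.3 CPM (14.5 to 20.5) in the other named nuclei, a ratio of 5.11 (4.19 to 6.28). F9 was at 121 CPM and 38.8 CPM, a ratio of 3.13 (2.70 to 3.62). F5 was at 441 CPM and 150.2 CPM, a ratio of 2.94 (2.73 to 3.16). These 3 of 10 clotting genes were called higher in hepatocyte-like nuclei, where 11.3% of 13550 genes were, and F8 and Vwf were called lower, where 25.7% were.

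F7 and F10 came next, without passing the 2-fold line. Hepatocyte-like nuclei had 70.6 CPM of F7, against 36.0 CPM in the other named nuclei (ratio 1.96, 1.66 to 2.32), and F10 had 214.8 CPM and 120.2 CPM (ratio 1.79, 1.63 to 1.96). The fibrinogen genes and prothrombin showed no excess in CPM. Hepatocyte-like nuclei had 709 CPM of Fgb, against 708 CPM in the other named nuclei (ratio 1.003, 0.958 to 1.05), F2 had 294 CPM and 354 CPM (0.829, 0.774 to 0.888), and Fga had 388 CPM and 493 CPM (0.788, 0.743 to 0.836). Over 33 other secreted liver proteins, such as albumin and the apolipoproteins, the same ratio had a median of 0.792 and ran from 0.596 (Mup20) to 1.93 (Ahsg). F2, Fga, Fgb and F10 thus lay within the range of secreted-protein transcripts, F7 lay just above its upper end, and F5, F9 and F11 lay well above it. Hepatocyte-like nuclei were also deeper, at a median of 4413.5 UMIs against 2338 in the other named nuclei. The 798 hepatocyte-like nuclei held 2873 Fgb, 1189 F2 and 1573 Fga UMIs. The 1412 endothelial-like nuclei held 2497, 1244 and 1752, which is fewer per nucleus.

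The spread between genes was narrower for wild-type nuclei. F11 was at 156.9 CPM (150.9 to 162.9) in hepatocyte-like nuclei and 66.2 CPM (44.0 to 95.7) in the 147 other named nuclei, a ratio of 2.37 (1.64 to 3.57), and was the 1 clotting gene called higher, where 1.02% of 12298 genes were (F8 was the 1 called lower, against 8.64%, and the 1 at least 1.5-fold lower, against 26.4%). No clotting gene was called higher there with at most 10% mitochondrially encoded UMIs, with at least 1000 genes per nucleus, with the coagulation genes in the clustering, with lineage set per nucleus or with cluster 9 added, so the F11 call was lost under these 5 alternatives. The ratios of F5 and F9 were 1.88 (1.53 to 2.35) and 1.70 (1.21 to 2.48). The other 5 ran from 1.25 (F2 and F10) to 1.42 (Fgb), and the 33 secreted-protein transcripts from 0.831 (Apoc1) to 1.63 (Azgp1) with a median of 1.13. Hepatocyte markers were also less confined there: they summed to between 10352 and 16743 CPM in the stellate-like, myeloid-like, lymphoid-like and cholangiocyte-like nuclei of the wild-type library, against 3729 to 6477 CPM in those of the Cox10-/- library. Their part in the smaller ratios was not tested.

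**Figure D3:**
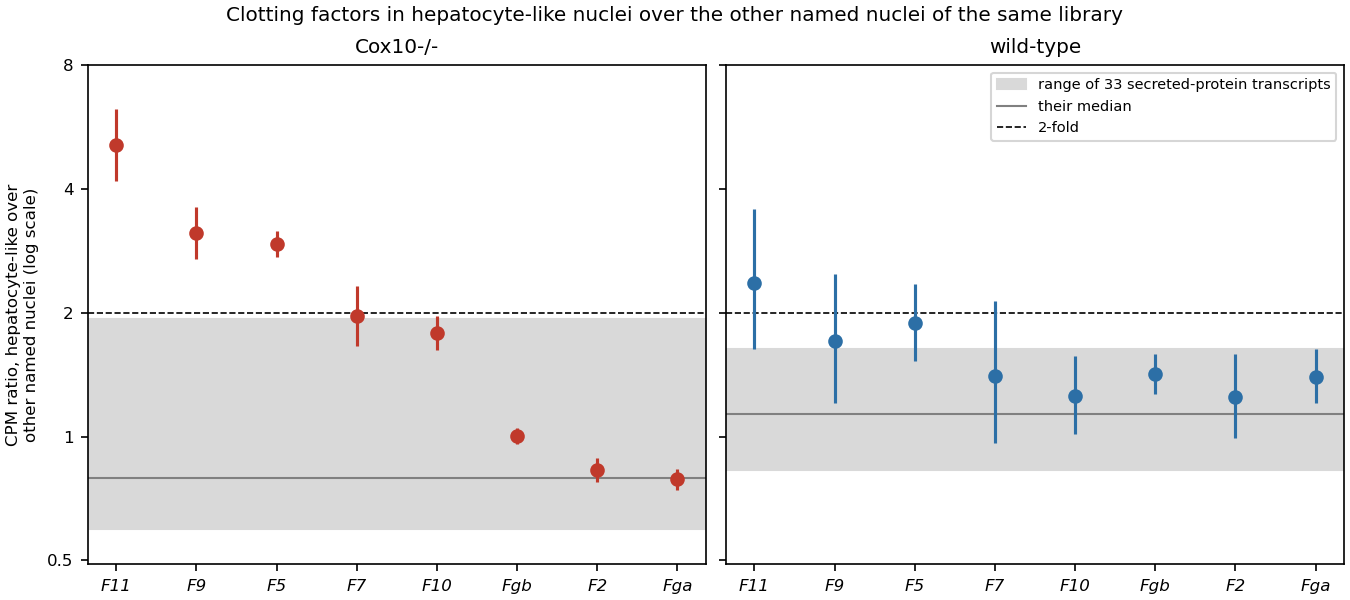
Ratio of CPM in hepatocyte-like over other named nuclei (log scale) for the 8 hepatocyte-made clotting transcripts, Cox10-/- at left and wild-type at right, with 95% counting intervals; the grey band is the range and the grey line the median of 33 secreted-protein transcripts. F11, F9 and F5 lie above the band in the Cox10-/- library, at 5.11, 3.13 and 2.94, and Fgb, F2 and Fga inside it.

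By lineage, the level that non-hepatocyte nuclei shared could be read gene by gene. In the 5 non-hepatocyte lineages of the Cox10-/- library Fgb ran from 503 CPM (cholangiocyte-like) to 793 CPM (endothelial-like), F2 from 233 to 395 CPM and Fga from 323 to 556 CPM, each with the same lowest and highest lineage. F11 ran from 15.1 to 23.2 CPM, F9 from 29.6 to 46.9 CPM, F7 from 19.5 to 46.4 CPM and F10 from 84.2 to 137 CPM. F5 ran from 113 CPM (myeloid-like) to 317 CPM (cholangiocyte-like). F2, Fga and Fgb shared their order at both ends, while F5 peaked in the lineage where those 3 were lowest.

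On a scale of UMIs per 1000 UMIs of the 33 secreted-protein transcripts, differences in total free RNA between lineages largely drop out. The scale was chosen after the data were seen. It includes Cp, which was 3.68-fold higher in cholangiocyte-like nuclei. Alb was at 263 per 1000 there, against 302 to 309 in the other non-hepatocyte lineages. F2, F7, Fga and Fgb were lowest in cholangiocyte-like nuclei on this scale, and the part of Cp in this was not tested. In the 5 non-hepatocyte lineages of the Cox10-/- library Fgb had 13.7 to 15.3 per 1000, F2 6.35 to 7.87 and Fga 8.82 to 11.03, so the highest lineage exceeded the lowest 1.11, 1.24 and 1.25 times. For F10 this factor was 1.47, for F9 1.62 and for F7 and F11 1.93. For F5 it was 3.53, and for F8 150. A single source of free RNA keeps its genes in 1 ratio in every lineage, and F8 and F5 were the 2 that left it by more than 2-fold, Vwf having 0 UMIs in several lineages.

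Hepatocyte-like nuclei of the Cox10-/- library matched that scale for some genes and exceeded it for others. F2 had 7.23 and Fga 9.56 per 1000, both inside the non-hepatocyte range, and Fgb had 17.5, just above it. F10 had 5.29 against at most 2.61, F7 1.74 against at most 1.03, F9 2.99 against at most 1.04, F11 2.18 against at most 0.632 and F5 10.9 against at most 8.65 elsewhere. Secreted-protein UMIs per nucleus were 206 in hepatocyte-like nuclei and between 120 and 155 in the other lineages of that library. F2 and Fga in these nuclei thus lay inside the range of the non-hepatocyte lineages. Fgb stood a little above that range (16.8 to 18.1, against 14.5 to 16.1 in stellate-like nuclei, the next highest). F5, F7, F9, F10 and F11 stood above it. Hepatocytes also make the secreted-protein transcripts of this scale, so F2 and Fga made alongside them could give the same ratio. A match on this scale therefore cannot separate such RNA from free RNA. Hepatocyte-like nuclei held more F2 and Fga UMIs per nucleus than endothelial-like nuclei, as given above, and were also deeper. The part of free RNA in F2 and Fga was not tested.

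**Figure D4:**
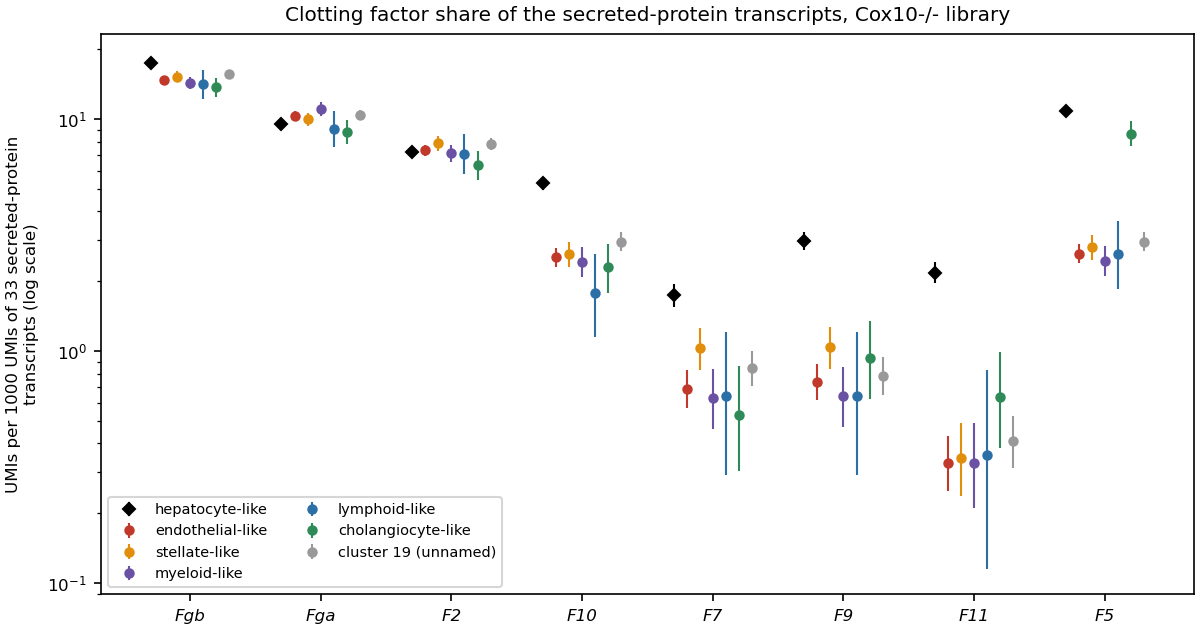
UMIs of 8 clotting transcripts per 1000 UMIs of 33 secreted-protein transcripts (log scale) in each lineage of the Cox10-/- library, with hepatocyte-like nuclei as black diamonds, cluster 19 in grey and 95% counting intervals. Fgb, Fga and F2 differ by at most 1.25-fold between non-hepatocyte lineages, and F5 stands at 10.9 in hepatocyte-like and 8.65 in cholangiocyte-like nuclei.

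The share of nuclei with a UMI, at 1000 UMIs per nucleus, gave the same division in the Cox10-/- library. At equal depth this share follows the same proportions as CPM, so it is not separate evidence. Fgb was seen in 54.0% of hepatocyte-like nuclei and in 39.3% to 57.5% of the nuclei of other lineages, F2 in 29.2% and in 25.7% to 36.8%, and Fga in 32.6% and in 27.7% to 43.4%. F11 was seen in 7.78% of hepatocyte-like nuclei and in 0.524% to 2.27% of those of other lineages. F9 was seen in 12.0% and in 1.05% to 3.61%, F10 in 21.6% and in 7.33% to 12.9%, F7 in 7.03% and in 1.05% to 4.68%, and F5 in 34.8% and in 10.3% to 21.5%. For these 5 genes the hepatocyte-like share lay above that of every other named lineage.

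F5 was the 1 hepatocyte-made factor called higher in a non-hepatocyte lineage of the Cox10-/- library. In cholangiocyte-like nuclei of the Cox10-/- library it was at 317 CPM (280 to 358; 260 UMIs), 2.43-fold (2.11 to 2.79) the other non-hepatocyte lineages, where 10.8% of 12856 genes were called higher. F5 was the 1 gene of the 10 called higher in that lineage. F8 and Vwf were called lower (11.3%), again against pooled lineages that held the endothelial-like nuclei. The hepatocyte markers summed to 6477 CPM in these nuclei, against 3729 to 4566 CPM in the other 4 non-hepatocyte lineages, while F2, Fga and Fgb were lowest there. Kng2, a kininogen, was 4.16-fold higher in the same nuclei, Tfpi2, a serine protease inhibitor, 5.23-fold, and Vkorc1l1, a vitamin K reductase, 2.63-fold. Plat, tissue plasminogen activator, was 4.53-fold higher on 10 UMIs. Kng2, Tfpi2 and Vkorc1l1 were also called higher in hepatocyte-like nuclei, as given below. Of 31 genes tested of the wider list described below, 4 were called higher and 4 lower in cholangiocyte-like nuclei. These shares were near those of all genes (10.8% and 11.3%). Cp, ceruloplasmin, was the 1 of the 33 secreted-protein transcripts called higher there, at 3.68-fold. The wild-type library had 10 cholangiocyte-like nuclei with 7 F5 UMIs, too few to compare.

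The sparse non-hepatocyte lineages of the wild-type library did not share 1 level for every gene. F5 was at 73.4 CPM (29.5 to 151) in endothelial-like nuclei on 7 UMIs, against 247 CPM in the other non-hepatocyte lineages, a ratio of 0.297 (0.116 to 0.640), and was called lower. F11 was at 151.8 CPM in stellate-like nuclei on 15 UMIs, 3.78-fold (1.68 to 8.64) the other non-hepatocyte lineages with 13 UMIs, and was called higher, where 3.47% of genes were. Hepatocyte markers differed between the same nuclei: the endothelial-like nuclei had 5673 CPM of them in sum, and the stellate-like nuclei 13102 CPM. The lymphoid-like nuclei, with the highest sum of 16743 CPM, had F11 at 59.5 CPM on 4 UMIs and F5 at 268 CPM. Their part in these differences was not tested.

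A cluster of the Cox10-/- library alone, cluster 19, held 945 shallow nuclei (median depth 1172 UMIs), and its leading genes were Prap1, Saa2 and Orm2. It stayed unnamed, with hepatocyte markers at 12708 CPM, against 20873 CPM in hepatocyte-like nuclei. All 8 hepatocyte-made clotting transcripts were called higher there than in the other named nuclei, by 2.47-fold (F5) to 3.10-fold (F10), where 10.2% of 13085 genes were called higher. The 33 secreted-protein transcripts had a median of 2.63-fold and a range of 1.63 to 3.06. All but F10 lay inside that range.

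Against hepatocyte-like nuclei of the same library, cluster 19 divided the genes again. Fga was 3.35-fold (3.12 to 3.595), F2 3.33-fold (3.07 to 3.61) and Fgb 2.76-fold (2.61 to 2.92) higher and called, where 11.9% of 10053 genes were called higher. F10 had a ratio of 1.73, F7 1.499, F5 0.842, F9 0.812 and F11 0.580 (0.435 to 0.761), none of them called. Per 1000 secreted-protein UMIs, cluster 19 lay at 0.409 for F11, 0.784 for F9, 0.844 for F7 and 2.96 for F5. For these 4 genes it lay inside the range of the non-hepatocyte lineages and below hepatocyte-like nuclei. F2, at 7.80, and Fga, at 10.4, were inside that range too. F10, at 2.97, lay above the non-hepatocyte lineages and below hepatocyte-like nuclei, and so did Fgb, at 15.6 with an interval (14.998 to 16.3) that overlapped the stellate-like one.

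Between genotypes, no clotting transcript of the hepatocyte-like nuclei passed the 2-fold rule. Of the 9 genes with enough UMIs, 0 were called, where 4.63% of 12368 genes were called higher and 2.77% lower. At 1.5-fold, F11, Fga and Fgb were lower in the Cox10-/- library (14% of genes) and F8 was higher (14.7%), the last at a level read as background. Fga, Fgb and F2 showed no excess in CPM over the other named nuclei of the Cox10-/- library. The part of free RNA in the genotype ratios of these genes, given below, was not tested. The median log2 ratio of the 9 was -0.25, beside 0.01 for all genes.

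The fibrinogen chains and F11 were the lower ones. Cox10-/- hepatocyte-like nuclei had 709 CPM of Fgb and wild-type ones 1097 CPM, a ratio of 0.647 (0.622 to 0.673). Fga was at 388 CPM and 593 CPM, a ratio of 0.656 (0.621 to 0.691). F11 was at 88.4 CPM and 156.9 CPM, a ratio of 0.564 (0.503 to 0.630). All 3 lay below the wild-type level in each of wild-type clusters 0 to 5, where F11 ran from 141.9 to 178 CPM, Fga from 449 to 654 CPM and Fgb from 885 to 1197 CPM. For Fga and Fgb the direction turned with the choice of nuclei: with lineage set nucleus by nucleus the log2 ratios were 0.19 and 0.04, and with cluster 19 counted as hepatocyte-like, a choice made after the data were seen, 0.01 and -0.14. The log2 ratio of F11 lay between -1.03 and -0.74 under the alternatives that change the nuclei or the scaling.

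Prothrombin moved the other way. Cox10-/- hepatocyte-like nuclei had 294 CPM of F2 and wild-type ones 222 CPM, a ratio of 1.32 (1.24 to 1.41), and its log2 ratio lay between 0.30 and 1.20 under the same alternatives, highest with lineage set per nucleus (1.20) and with cluster 19 counted as hepatocyte-like (1.03). F5 was at 441 CPM and 392.1 CPM (1.12, 1.07 to 1.19), F9 at 121 CPM and 133 CPM (0.912, 0.825 to 1.01), F10 at 215 CPM and 255 CPM (0.843, 0.783 to 0.907), and F7 at 70.6 CPM and 89.8 CPM (0.787, 0.691 to 0.893). The 33 secreted-protein transcripts had a median ratio of 1.16, with Hpx (hemopexin) at 2.61, Mup20 at 2.13 and Hp (haptoglobin) at 2.10 called higher. Per 1000 of their UMIs the Cox10-/- over wild-type ratio was 1.18 for F2, 0.999 for F5, 0.582 for Fga, 0.574 for Fgb and 0.5005 for F11. Median mitochondrial shares were 3.91% for the Cox10-/- and 12.6% for the wild-type nuclei of this lineage, and median depths 4413.5 and 2856 UMIs; their part in these ratios was not tested.

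**Figure D5:**
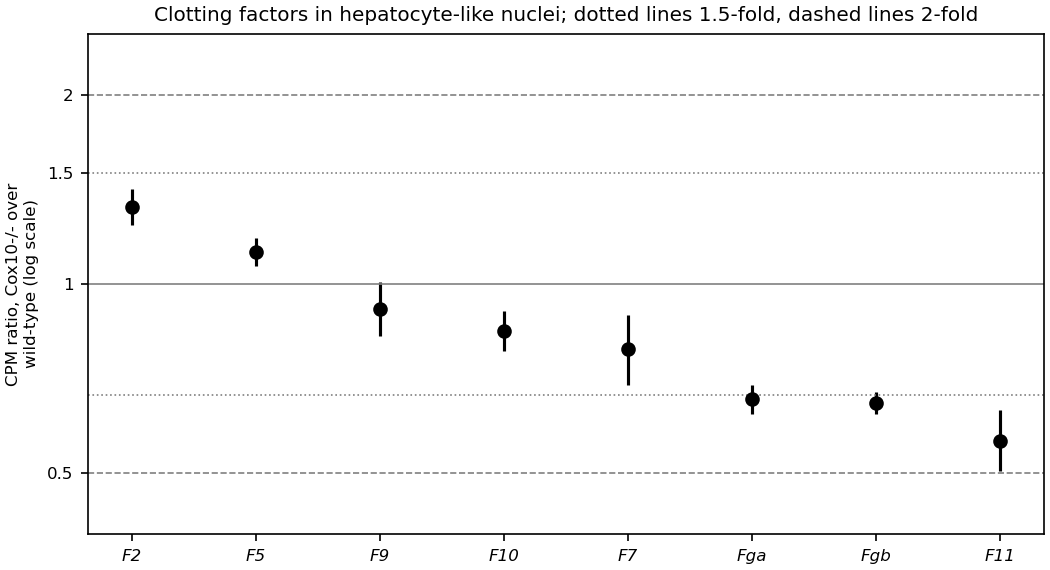
Ratio of CPM in hepatocyte-like nuclei, Cox10-/- over wild-type (log scale), for the 8 hepatocyte-made clotting transcripts with 95% counting intervals, dotted lines at 1.5-fold and dashed lines at 2-fold. F2 lies highest at 1.32 and F11 lowest at 0.564, and no gene crosses a 2-fold line.

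A wider list of 34 genes of clotting, its inhibitors, fibrinolysis and factor processing was set beside the 10. In hepatocyte-like nuclei 25 had enough UMIs between genotypes, with a median log2 ratio of 0.14. Pros1, which encodes protein S, the cofactor of activated protein C, was the 1 called higher, at 159 CPM in Cox10-/- and 66.2 CPM in wild-type nuclei (2.40-fold, 2.18 to 2.65), and none was called lower. Tfpi2 had the lowest ratio, 0.506, at 55.6 CPM and 109.7 CPM. Fgg, the remaining fibrinogen chain, was at 517 CPM and 669 CPM, a ratio of 0.773, beside the lower values of Fga and Fgb.

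Across lineages of the Cox10-/- library 31 of the 34 were tested, and 5 were called higher (11.3% of all genes were) and 7 lower (25.7%) in hepatocyte-like than in other named nuclei. The higher ones were Tfpi2 (2.95-fold), Kng2 (2.70), Proc, which encodes protein C (2.48), Furin, a protease that trims pro-proteins (2.32), and Vkorc1l1 (2.22). The lower ones included Adamts13, Tfpi, Thbd, Procr, Plaur and Plat. Among wild-type nuclei 25 of the 34 were tested in this comparison, and Kng2 was the 1 called (2.09-fold higher).

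In endothelial-like nuclei of the Cox10-/- library 3 of the 31 tested genes of the wider list were called higher, a share near that of all genes. Tfpi, the inhibitor of the factor VII and tissue factor complex, was at 169 CPM (155 to 183) in endothelial-like and 15.1 CPM in other non-hepatocyte nuclei, 11.2-fold (8.72 to 14.5). Thbd, or thrombomodulin, the thrombin receptor that activates protein C, was 4.88-fold higher (2.88 to 8.65; 62 and 19 UMIs). Pros1 was at 237 CPM and 75.5 CPM, 3.14-fold (2.76 to 3.57). These were the 3 of 31 called higher in that lineage (6.87% of all genes were), and 4 were called lower (14.6%), among them Adamts13, Plat and Plaur. In wild-type endothelial-like nuclei none of the 20 tested was called higher, with a median ratio of 0.684 and the highest, Pros1, at 2.72; Tfpi and Thbd had too few UMIs there to be tested.

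The protease that cuts Vwf came from another lineage than Vwf itself. Adamts13 was at 212 CPM (193 to 233; 435 UMIs) in stellate-like nuclei of the Cox10-/- library and at 2.24 CPM in the other non-hepatocyte nuclei, 94.96-fold (55.0 to 180), with 5 UMIs in endothelial-like and 2 in hepatocyte-like nuclei. Plat was 4.02-fold higher in stellate-like nuclei (1.81 to 9.23; 17 and 12 UMIs) and was called as well, where 7.06% of all genes were called higher. In myeloid-like nuclei Plaur, the urokinase receptor, was the 1 gene of the list called higher, at 8.26-fold (4.87 to 14.4; 46 and 22 UMIs), where 9.2% of all genes were. F13a1, which encodes the chain of factor XIII that cross-links fibrin, had 36 of its UMIs in unnamed cluster 15, at 169.9 CPM, against 6.29 CPM in myeloid-like nuclei, and Plaur was at 367 CPM in unnamed cluster 12.

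The genes most like Fgb over the 17 sums were H2-Q10 (0.96), Kng1 (0.95), Gjb1 (0.94), Aadac (0.94) and Fga (0.94). F5 correlated with F11 at 0.91 and with F9 at 0.89, and with F2 at -0.19. With F8, F5 stood at -0.54 and F2 at 0.06. These correlations describe the same sums as above.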

How the data were processed

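The authors deposited raw UMI counts per gene and nucleus; per the submitters' processing notes they were made with Cell Ranger 7.0 on mm10, and the sources used here give no further filter. From 10615 nuclei, Scrublet (expected doublets 5%) called 14 in the Cox10-/- library (0.271%) and 0 in the wild-type library, so it cannot be said to have worked; the called nuclei were left out. Nuclei held 601 to 3999 genes and under 20% mitochondrially encoded UMIs (largest 19.99%). Counts were clustered with scanpy 1.11.5 (Leiden resolution 1, 2000 variable genes without coagulation genes, 30 components, 15 neighbours), giving 20 clusters. A cluster was given a non-hepatocyte name when markers of exactly 1 lineage exceeded the other clusters by a log2 of at least 2. The cluster also needed at least 3 of these markers detected and a leading gene at least 8-fold higher. Where more than 1 lineage passed, as in clusters 7 and 14, it stayed unnamed. Hepatocyte-like clusters needed an excess of hepatocyte markers above 0 and an excess below 1 for every other lineage. Names were rebuilt here, so they may differ from the submitters'. UMIs were summed by library and lineage. Poisson intervals are exact, shares have Clopper-Pearson intervals, ratios have exact conditional binomial intervals, and all cover counting error only; a count of 0 was taken as up to 3 counts. Log2 ratios add 0.5 UMI. The call rule was run on simulated counts with counting error only, which cannot show how it behaves between animals or preparations. With 1 library per genotype no p-value was computed. DESeq2 1.42.0 and edgeR 4.0.16 served for alternative size factors only. Genes named outside the 10 are those called in a comparison, leading genes, markers, the extremes of the secreted list and the 5 genes most like F8, Vwf and Fgb; Fgg was named after its values were seen. The 10 genes, the wider list and the markers were chosen with earlier results of these data known. Annotation was GENCODE vM21 and promoters were from RefSeq. The result of 1 gene of the wider list is not reported here.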

Additional observations from a re-analysis of the deposited data

How the results depend on the processing

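F8 in endothelial-like nuclei of the Cox10-/- library was 1303 CPM with at most 10% mitochondrially encoded UMIs and 1340 CPM without those genes in the library size, against 1214 CPM as reported. In the wild-type library it was 239 CPM with at most 10%, 454 CPM with the coagulation genes in the clustering, 443 CPM with lineage set per nucleus and 457 CPM with cluster 9 added, against 1028 CPM. Vwf in the Cox10-/- library was 15.5 CPM with lineage per nucleus and 14.3 CPM as a mean over nuclei, and the share of nuclei with F8 was 84.4% without thinning and 86.0% at 2000 UMIs. The ratio of F8 with over without central-vein markers was 1.28 at 2 marker UMIs. Of the 10 genes, 0 were higher in wild-type hepatocyte-like than other named nuclei with at most 10%, with at least 1000 genes per nucleus, with the coagulation genes, per nucleus and with cluster 9 added, and 2 at resolution 2 and as a mean over nuclei, against 1. In the Cox10-/- library 5 were higher with cluster 19 as hepatocyte-like, against 3. Between genotypes 1 gene was at least 1.5-fold lower with at least 1000 genes, per nucleus, as a mean over nuclei and with cluster 19, against 3, and all genes called higher were 1419 per nucleus, 1105 with cluster 19 and 334 at 100 UMIs, against 573. The cause was not tested. TMM and DESeq2 factors moved log2 ratios by -0.02. Choices with cluster 9, cluster 19 and without cholangiocyte-like nuclei were made after the data were seen. No hepatocyte-like cluster was shallow enough for the planned exclusion. No paired analysis was possible because each genotype had 1 library. Of the alternative values for the main results, 26 moved past the limits used, and 96 did not. Among single genes, the Cox10-/- over wild-type log2 ratios changed sign for Fga (0.19) and Fgb (0.04) with lineage per nucleus, and for Fga (0.01) with cluster 19. Few wild-type non-hepatocyte nuclei (10 to 47 per lineage) limit every value drawn from them.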
